A study of Mus musculus with 2 samples.

Results

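The Wnt signalling genes described here are the secreted Wnt ligands, their Frizzled and Lrp receptors, and the secreted proteins and Lgr receptors that modulate them, measured in the hearts of mouse embryos. Members were the protein-coding genes whose mouse GENCODE symbol names a Wnt, Fzd, Lrp5 or Lrp6, Sfrp, Dkk1 to Dkk4, Rspo or Lgr4 to Lgr6. This gave 46 of the 43346 mouse genes in the tables: 19 Wnt ligands, 10 Frizzled receptors, 2 Lrp co-receptors, 4 Sfrp antagonists, 4 Dkk proteins, 4 Rspo agonists and 3 Lgr receptors. The samples were labelled as heart, from healthy B6NCrl embryos at embryonic day 10.5, with males and females pooled. They carried no allele or treatment that the labels name. There was 1 group of 2 libraries, replicate 1 from a pool of 69 embryos and replicate 2 from a separate pool of 51 embryos, each made from 10 ng of total RNA above 200 nt with ERCC spike-ins (synthetic RNAs added to the sample). The libraries held 45205713 and 41070978 expected counts (estimated reads per gene). With a single condition, the comparisons are between genes within the heart and between the 2 pools, and no p-value was computed. With n = 2, the SD measures only the spread between these libraries.

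Wnt proteins are lipid-modified ligands that bind the cysteine-rich domain of Frizzled receptors. With Lrp5 or Lrp6 as co-receptor they stabilise beta-catenin, which then acts with TCF/LEF factors on target genes, while other Wnts work through Ror, Ryk and the planar polarity proteins without beta-catenin. Sfrp proteins carry a Frizzled-like domain and bind Wnts outside the cell, Dkk1 and Dkk2 bind Lrp5 and Lrp6, and Rspo proteins bind Lgr receptors and keep Frizzled receptors at the surface by removing the ligases Znrf3 and Rnf43. In the embryonic heart, Wnt signals are known for roles in the second heart field, which adds muscle to the outflow and inflow ends of the tube, and in the valves and the epicardium.

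Of the 46 members, 28 (60.9%) stood at 1 TPM or more in both pools, where TPM is a relative abundance per transcript length. The same held for 57% of all 21474 protein-coding genes, so the share of members was close to the background. Dkk3 led all members at 67.7 ± 25.3 TPM (mean ± SD, n = 2 pools, as in every mean below), above 89.3% of protein-coding genes, and Sfrp1 followed at 48.8 ± 5.47 TPM, above 85.3% of them. At the other end, Wnt8a, Wnt8b and Dkk4 had 0 counts in both pools, which allows up to 3 counts in each. In all, 13 members lay below 1 TPM in both pools, 9 of them Wnt ligands.

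**Figure D1:**
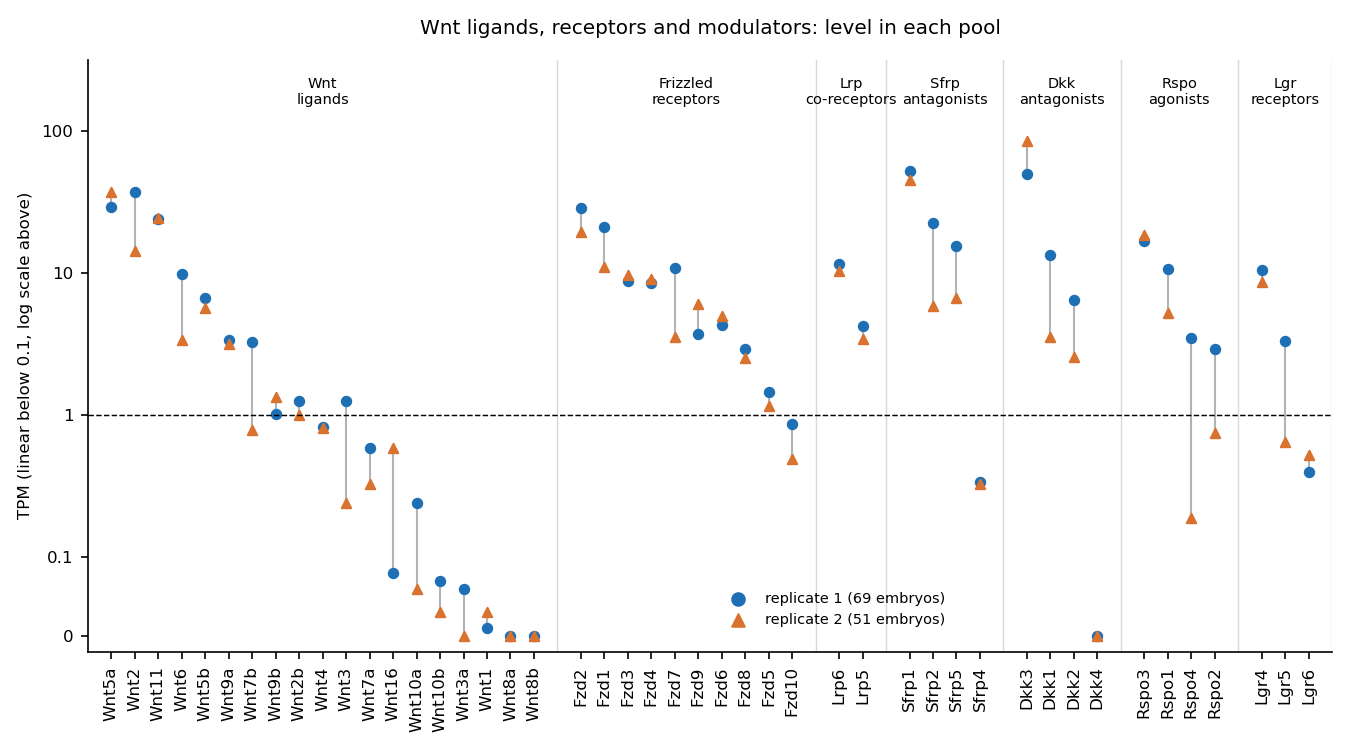
Level of each member in TPM, by class, in replicate 1 (circles) and replicate 2 (triangles), with a line joining both values; the axis is logarithmic above 0.1 TPM and linear below, and the dashed line marks 1 TPM. Dkk3 and Sfrp1 stand highest, Wnt5a, Wnt2 and Wnt11 lead the ligands, and Rspo4 has the longest line among members above 1 TPM in a pool.

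Wnt5a, Wnt2 and Wnt11 were the main ligands. Wnt5a (ENSMUSG00000021994.10, mm10 chromosome 14, 28504750 to 28527448), a ligand best known for signalling without beta-catenin, stood at 29.4 TPM in replicate 1 and 37.3 in replicate 2. Wnt2 (chromosome 6, 17988940 to 18030585), known from the inflow region of the early heart, stood at 37.5 and 14.3 TPM. Wnt11 (chromosome 7, 98835112 to 98855195), which like Wnt5a is known from the outflow tract, stood at 24.2 and 24.4 TPM. The order of these 3 therefore differed between the pools: Wnt2 was first in replicate 1 and the lowest of them in replicate 2. The values of Wnt2 overlapped those of Wnt5a and Wnt11 over the pools, while Wnt5a exceeded Wnt11 without overlap. Each of the 3 exceeded the next ligand, Wnt6 (9.94 and 3.39 TPM), in both pools. Together the 19 ligands summed to 119.8 TPM in replicate 1 and 93.5 TPM in replicate 2. Wnt5a held 24.6% and 39.9% of that sum, Wnt2 31.3% and 15.3%, and Wnt11 20.2% and 26.1%.

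The other ligands were low. Wnt5b, a close relative of Wnt5a, stood at 6.66 and 5.71 TPM, and Wnt9a at 3.40 and 3.18 TPM. Wnt9b (1.02 and 1.34 TPM) and Wnt2b (1.25 and 1.00 TPM) reached 1 TPM in both pools, while Wnt7b (3.30 and 0.79 TPM) and Wnt3 (1.26 and 0.24 TPM) did so in replicate 1 alone. Wnt4 was even, at 0.82 and 0.81 TPM. Wnt7a stood at 0.59 and 0.33 TPM and Wnt16 at 0.08 and 0.59 TPM, the latter from 5 and 23 counts. Wnt10a (17 and 4 counts), Wnt10b (3 and 2), Wnt3a (5 and 0) and Wnt1 (1 and 2) were at or near the limit of detection. Wnt1 and Wnt3a, known as signals of the dorsal neural tube, thus had no more than 5 counts in a pool, and Wnt3a at 0 counts in replicate 2 may have up to 3.

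The ligands include 4 pairs of chromosomal neighbours, with no other protein-coding gene between the members of a pair. Wnt6 and Wnt10a lie 6.19 kb apart on the same strand of chromosome 1, and Wnt6 (9.94 and 3.39 TPM) was well above Wnt10a (0.24 and 0.06 TPM). Wnt3a and Wnt9a on chromosome 11 are transcribed away from each other from starts 16.2 kb apart, and Wnt9a (3.40 and 3.18 TPM) was present beside Wnt3a (0.06 and 0 TPM). Wnt9b and Wnt3, further along chromosome 11, are also divergent, with starts 24.3 kb apart. Wnt9b stood at 1.02 and 1.34 TPM and Wnt3 at 1.26 and 0.24 TPM, so their order differed between the pools. Wnt10b and Wnt1, a divergent pair 11.7 kb apart on chromosome 15, were at 0.07 TPM or less in both pools.

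Of the 10 Frizzled receptors, 9 (90%) reached 1 TPM in both pools, against 57% of all protein-coding genes. Fzd2 (chromosome 11, 102604396 to 102608058) stood at 28.7 and 19.4 TPM, and its closest relatives Fzd1 and Fzd7 at 20.99 and 11.0 TPM and at 10.9 and 3.57 TPM. Fzd3, a receptor best known from axon guidance and planar polarity, stood at 8.78 and 9.79 TPM. Fzd4, which serves in blood vessels also as the receptor of Norrin, stood at 8.51 and 9.09 TPM. Fzd9 (3.73 and 6.07 TPM) and Fzd6 (4.30 and 4.98 TPM), the latter with Fzd3 a planar polarity receptor, were lower. Fzd8 (2.92 and 2.54 TPM), Fzd5 (1.46 and 1.16 TPM) and Fzd10 (0.87 and 0.49 TPM) closed the order. Fzd2 was above Fzd1 in each pool, but its value in replicate 2 lay below that of Fzd1 in replicate 1. Fzd1 exceeded Fzd3 without overlap. Fzd3 and Fzd4 overlapped, and so did Fzd4, Fzd7, Fzd9 and Fzd6 along the order. For 6 of the 10 receptors, Fzd1, Fzd2, Fzd7, Fzd8, Fzd9 and Fzd10, the main transcript has a single exon, against none of the other 36 members.

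Both co-receptors were present and their order did not change. Lrp6 (chromosome 6, 134446476 to 134566965) stood at 11.5 and 10.4 TPM and Lrp5 at 4.28 and 3.43 TPM, and Lrp6 held 74.0 ± 1.54% of their sum. The summed Frizzled receptors exceeded the summed co-receptors by 5.76-fold in replicate 1 and 4.94-fold in replicate 2, and the summed ligands exceeded the Frizzled receptors in both pools (log2 ratio of receptors over ligands -0.43 ± 0.04).

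Among the secreted antagonists, Sfrp1 (chromosome 8, 23411502 to 23449632) stood at 52.7 and 44.98 TPM, above Sfrp2 (22.6 and 5.88 TPM) and Sfrp5 (15.5 and 6.70 TPM) without overlap. Sfrp5 is known as a marker of the inflow progenitors of the heart. Sfrp2 was the higher of this pair in replicate 1 and Sfrp5 in replicate 2, and their values overlapped. Sfrp4 had 17 and 15 counts (0.34 and 0.33 TPM). Frzb, a related antagonist outside the naming rule, stood at 7.38 and 6.87 TPM. Dkk3 (chromosome 7, 112116017 to 112159057), a divergent family member not known to bind Lrp6, stood at 49.8 and 85.6 TPM. Dkk1, the classical blocker of Lrp6, stood at 13.5 and 3.54 TPM and Dkk2 at 6.46 and 2.55 TPM. Dkk3 exceeded both without overlap and held 71.4% and 93.4% of the class sum, and it alone of the class was higher in replicate 2, where the class sum was 91.7 TPM against 69.8.

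Among the agonists, Rspo3 (chromosome 10, 29452416 to 29535867), known for its need in vessel formation, stood at 16.9 and 18.5 TPM. Rspo1 stood at 10.8 and 5.22 TPM, Rspo2 at 2.91 and 0.75 TPM and Rspo4 at 3.49 and 0.19 TPM. Rspo3 exceeded the other 3 without overlap. Of their receptors, Lgr4 stood at 10.5 and 8.61 TPM, Lgr5, known as a stem cell marker of gut and skin, at 3.32 and 0.65 TPM, and Lgr6 at 0.40 and 0.52 TPM. Lgr4 was thus the main Lgr receptor, with 73.9% and 88.0% of the class sum. The summed Rspo genes exceeded the summed Lgr genes by 2.39-fold and 2.52-fold.

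**Figure D2:**
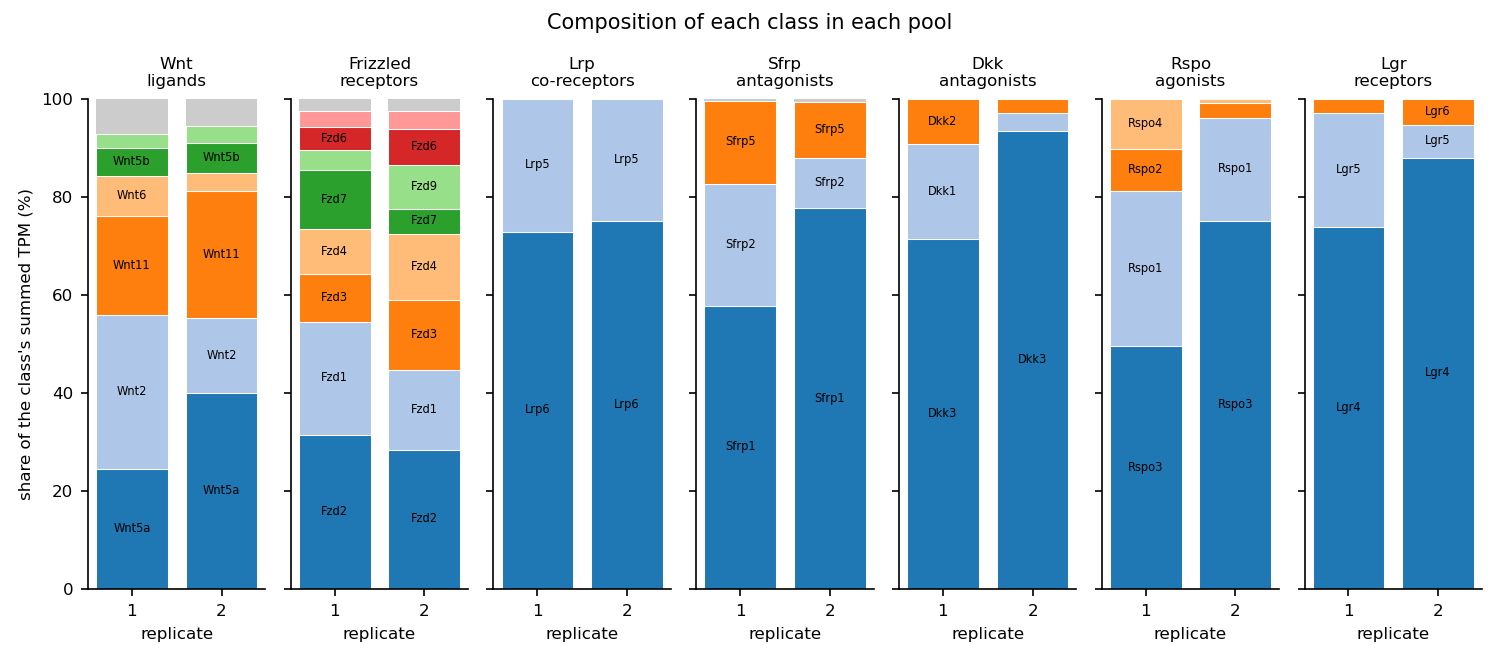
Share of each class's summed TPM held by each member, for replicates 1 and 2; members with small mean shares are merged in grey, thin segments are not labelled, and colours mark the order within a class. In replicate 2 the first member holds more of the class than in replicate 1 for Wnt5a, Sfrp1, Dkk3, Rspo3 and Lgr4, while Fzd2 and Lrp6 keep 28.5% to 31.5% and 72.9% to 75.1%.

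By the rule given next, 12 members were counted as differing between the 2 pools, all of them higher in replicate 1. Ratios between the pools are log2 ratios of scaled counts, replicate 2 over replicate 1, and a gene counts as differing here if it has a mean of at least 50 counts, a ratio of 2-fold or more, and deposited TPM intervals that do not overlap. Of the 36 members with that mean count, 12 (33.3%) were counted as higher in replicate 1, against 4.75% of all 14124 genes and 4.93% of the 12991 protein-coding genes with that mean count. None of the 36 was counted as higher in replicate 2, against 2.31% of all genes and 2.22% of protein-coding genes, so this share was near the background. Scaling by spike-in totals changed the ratios but not the deposited TPM intervals. With it, 9 members lay past these limits on the side of replicate 1 and 2 on that of replicate 2. The shares of all genes were then 3.09% and 6.1%. Each side of the comparison is 1 library, so this describes the pools and is not a test. For the 40 members with at least 10 counts on average, the median ratio was -0.22, with 26 below 0. Over all 17547 such genes the median was 0.00 and 50.4% were below 0. The sign of the members' median depends on the scaling: with spike-in totals it was 0.11, where the median of all genes moved to 0.32, so that the members lay 0.21 below all genes with either scaling. Spike-in scaling adds about 0.32 to every ratio, so ratios less than 0.32 below 0 change sign with it.

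**Figure D3:**
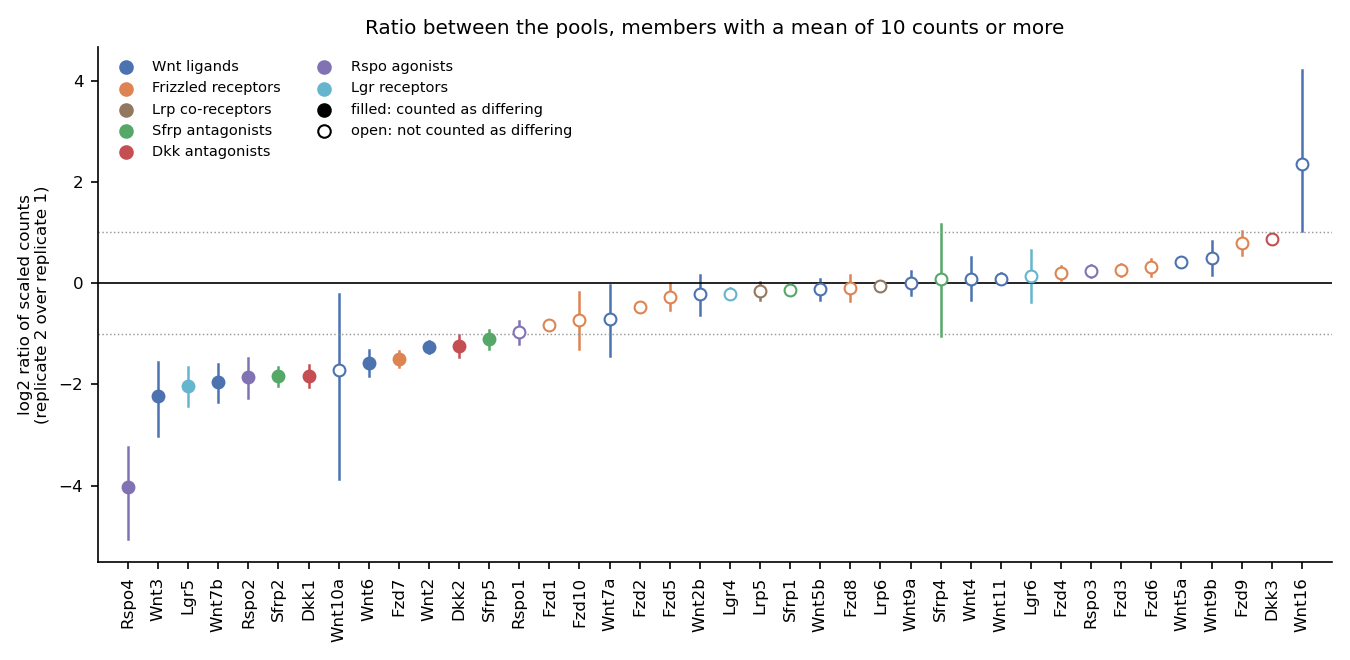
Log2 ratio of scaled counts, replicate 2 over replicate 1, of the 40 members with a mean of 10 counts or more, coloured by class; bars are 95% exact intervals that cover counting error only, dotted lines mark 2-fold, and filled points were counted as differing. The 12 filled points all lie on the side of replicate 1, from -1.11 (Sfrp5) to -4.02 (Rspo4).

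Rspo4 had the largest ratio of those counted. It had 241 counts in replicate 1 and 12 in replicate 2, a log2 ratio of -4.02 (95% exact counting interval -5.05 to -3.25), or 16.3-fold. Rspo2 had 285 and 66 counts (-1.85), and Rspo1 554 and 238 counts (-0.97), just short of 2-fold, and it was counted when scaled by total gene counts or taken from the deposited TPM. Rspo3 had 1178 and 1165 counts (0.23), so the most abundant agonist stayed under 2-fold. Lgr5 had 346 and 71 counts (-2.03, interval -2.43 to -1.66), while Lgr4 stood at -0.21 and Lgr6 at 0.14.

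Among the Sfrp and Dkk genes, 4 of 6 with enough counts were counted as higher in replicate 1, against 4.75% of all genes. Sfrp2, with 1310.4 and 307.1 expected counts, had a log2 ratio of -1.84 (interval -2.03 to -1.66) and Sfrp5, with 848 and 331 counts, one of -1.11. The leading member Sfrp1 stood at -0.13. Dkk1, with 955 and 226 counts, had a ratio of -1.83 (interval -2.05 to -1.62) and Dkk2, with 707 and 251 counts, one of -1.24. Dkk3 lay on the other side at 0.88 (4936 and 7646 counts), a 1.84-fold difference that missed the 2-fold limit. With spike-in totals, Sfrp5 and Dkk2 were no longer counted as higher in replicate 1, and Dkk3 and Fzd9 were counted as higher in replicate 2.

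Of the ligands, 4 of 11 with enough counts (36.4%) were counted as higher in replicate 1, against 4.75% of all genes. These were Wnt3 (114 and 20 counts, -2.23), Wnt7b (329 and 71 counts, -1.96), Wnt6 (573 and 161 counts, -1.58), a ligand known from surface epithelium, and Wnt2 (2211 and 774 counts, -1.26). With spike-in totals Wnt2 (-0.94) was no longer counted. Wnt5a (0.42), Wnt11 (0.09), Wnt5b (-0.12) and Wnt9a (0.00) stayed under 2-fold. Wnt16 had the highest ratio of all members, 2.34, but from 5 and 23 counts, with an interval of 1.02 to 4.20, so that it fell under the minimum count. Of the Frizzled receptors Fzd7 alone was counted (1463 and 434 counts, -1.50, interval -1.66 to -1.35), 10% of the class against 4.75% of all genes. Its relatives Fzd1 (-0.83) and Fzd2 (-0.47) were under 2-fold, and Fzd9 (0.80) lay on the side of replicate 2. Neither co-receptor was counted, at -0.05 for Lrp6 and -0.15 for Lrp5.

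Markers of tissue next to the heart and of its poles differed between the pools in the same direction as these 12 members. All 10 markers of the liver primordium were lower in replicate 2 (summed level 1349.3 and 54.4 TPM, median log2 ratio -4.64), led by Afp (736.7 and 27.6 TPM) and Apoa2 (262.0 and 13.8 TPM). So were all 8 of the foregut and pharyngeal endoderm (46.4 and 8.78 TPM, -2.76), led by Epcam (22.8 and 4.96 TPM) and Cdh1 (9.48 and 2.79 TPM). The same held for all 9 Hox genes of trunk and limb levels with at least 10 counts on average (list sum 15.5 and 0.78 TPM, -4.51). Of these, Hoxa9 (4.71 and 0.32 TPM) and Hoxa10 (2.98 and 0.25 TPM) were the highest, and Hoxb9 and Hoxd13 had 0 counts in replicate 2. All 5 markers of body wall ectoderm were lower in replicate 2 (20.2 and 6.05 TPM, -1.58), led by Grhl3 (11.7 and 3.66 TPM) and Trp63 (4.72 and 1.41 TPM). All 5 of the outflow tract and second heart field were too (44.5 and 12.2 TPM, -1.74), among them Isl1, the factor that marks second heart field cells (22.7 and 5.94 TPM), and Fgf8 (7.38 and 1.61 TPM). Cushion mesenchyme markers were lower for 7 of 8 (944.8 and 669.4 TPM, -0.60), with Col3a1 at 369.8 and 261.7 TPM and Col1a1 at 258.5 and 123.9 TPM.

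Neural markers were low apart from genes that other tissues also express. Neural crest markers were lower in replicate 2 for 4 of 5 with at least 10 counts on average (47.5 and 41.4 TPM, -1.80), with Ets1 at 41.8 and 39.98 TPM, Tfap2b at 2.25 and 0.43 TPM, and Foxd3 at 0 counts in replicate 2. Neural tube markers were lower for 5 of 6 (38.6 and 30.5 TPM, -0.93), with Nes at 23.8 and 21.1 TPM, Tubb3 at 13.1 and 8.86 TPM, Sox1 at 0 in replicate 2 and Olig2 at 0 in both. Heart muscle markers went the other way, higher in replicate 2 for 8 of 8 (20349.4 and 33572.3 TPM, 0.87), with Actc1 at 6437.5 and 11048.3 TPM and Myl7 at 5785.3 and 6876.6 TPM, so the labelled tissue's markers were abundant in both pools. Endothelial markers were higher in replicate 2 for 8 of 8 (328.9 and 423.6 TPM, 0.52), with Plvap at 142.9 and 165.2 TPM and Tek at 34.5 and 53.95 TPM. Red cell markers were higher for 6 of 6 (28572.7 and 35353.1 TPM, 0.45), with Hbb-y at 13857.6 and 18907.3 TPM and Hbb-bh1 at 7390.9 and 8357.6 TPM. Epicardial markers went both ways, lower in replicate 2 for 4 of 7 (299.2 and 291.8 TPM, -0.02), with Upk3b at 97.8 and 103.4 TPM and Krt19 at 63.96 and 73.3 TPM. The low marker Msln (0.36 and 1.56 TPM, 2.19) was counted as higher in replicate 2. In bulk tissue, fewer cells of a type and less RNA per cell cannot be told apart. The part of these other cell types in the ratios of the Wnt genes was not tested.

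The rest of the pathway was read from 65 further genes in 6 lists, of which 52 reached 1 TPM in both pools. Of 58 with a mean of 50 counts, 9 (15.5%) were counted as higher in replicate 1 and 2 (3.45%) as higher in replicate 2, against 4.75% and 2.31% of all genes, so the second share was near the background. With spike-in totals these counts were 5 and 3, as Axin2, Tbx3, Tle1 and Wif1 were no longer counted and Daam1 was added. With total gene counts they were 10 and 0, and from the deposited TPM 8 and 0. For secretion and removal of the ligands, Wls, the carrier that takes Wnts to the surface, stood at 90.5 and 90.8 TPM and Porcn, which attaches their lipid, at 4.54 and 3.93 TPM. Notum, which removes that lipid (4.81 and 1.36 TPM), and Trabd2b, a protease that cuts Wnts (1.85 and 0.55 TPM), were counted as higher in replicate 1. Thus 2 of 4 genes of this list were counted, against 4.75% of all genes.

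Of the other secreted and surface modulators 4 of 10 were counted as higher in replicate 1 and 2 as higher in replicate 2. The shares of all genes were 4.75% and 2.31%. Those higher in replicate 1 were the antagonists Sostdc1 (4.12 and 1.24 TPM, -1.63) and Wif1 (2.07 and 1.01 TPM, -1.05), the ligase Rnf43 (1.94 and 0.79 TPM, -2.10) and the Dkk receptor Kremen2 (1.55 and 0.36 TPM, -1.97). Those higher in replicate 2 were Kremen1 (15.3 and 29.1 TPM, 1.03) and the glypican Gpc4 (21.02 and 39.3 TPM, 1.00), so the pair of Kremen genes differed in opposite directions. Kremen1 and Gpc4 were not counted when scaled by total gene counts or taken from the deposited TPM, and Wif1 was not counted from the deposited TPM. Gpc3, a glypican of growing embryonic tissue, was the most abundant of the list at 544.5 and 410.2 TPM, and Cer1 had 0 counts in both pools. Of the other receptors and planar polarity genes, 0 of 12 were counted in either direction, against the same shares of all genes. For a list of this size that is near the background. The most abundant were the co-receptor Ptk7 at 55.8 and 54.8 TPM, Prickle1 at 23.7 and 28.3, Ror2, a receptor for Wnt5a, at 21.5 and 23.5, and Vangl1 at 19.3 and 25.2 TPM. The formin-family genes Daam1 (8.01 and 14.2 TPM, 0.92) and Daam2 (5.91 and 3.37 TPM, -0.71) differed most, in opposite directions, and with spike-in totals Daam1 was counted as higher in replicate 2.

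Inside the cell, 1 of 15 Dishevelled and destruction complex genes (6.67%) was counted, against 4.75% of all genes, so this share was near the background. It was Axin2 (4.25 and 1.86 TPM, -1.18), which is itself a target of the pathway. The kinases Csnk1a1 (199.8 and 213.4 TPM), Csnk1d (83.0 and 72.2 TPM) and Csnk1e (82.1 and 72.6 TPM) and the ligase subunit Fbxw11 (50.8 and 62.6 TPM) led the list. Beta-catenin itself, Ctnnb1, stood at 289.1 and 271.1 TPM, with its partner Tcf7l2 at 51.3 and 43.4, its inhibitor Ctnnbip1 at 40.9 and 33.6, and Bcl9 at 32.2 and 27.5 TPM. Of the 12 genes in the list of beta-catenin and its nuclear partners, only the corepressor Tle1 (15.9 and 6.48 TPM, -1.28) was counted. This is 8.33% of the list, against 4.75% of all genes. Among 14 target genes, 12 of 13 with a mean of 10 counts lay below 0 (median -0.74), against 50.4% of all genes, and 4 of 11 were counted, against 4.75% of all genes, all higher in replicate 1: Rnf43, Notum, Axin2 and Tbx3 (28.98 and 12.96 TPM, -1.04). Myc (64.1 and 34.3 TPM, -0.74), Lef1 (25.9 and 20.2 TPM, -0.25) and Ccnd1 (79.2 and 77.4 TPM, 0.07) were not. With spike-in totals 9 of 13 targets lay below 0 (median -0.42) and 2 of 11 were counted, Rnf43 and Notum. Several of these targets are known to respond to other signals too, and the lists share Axin2, Notum, Rnf43, Znrf3, Lef1 and Tcf7.

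**Figure D4:**
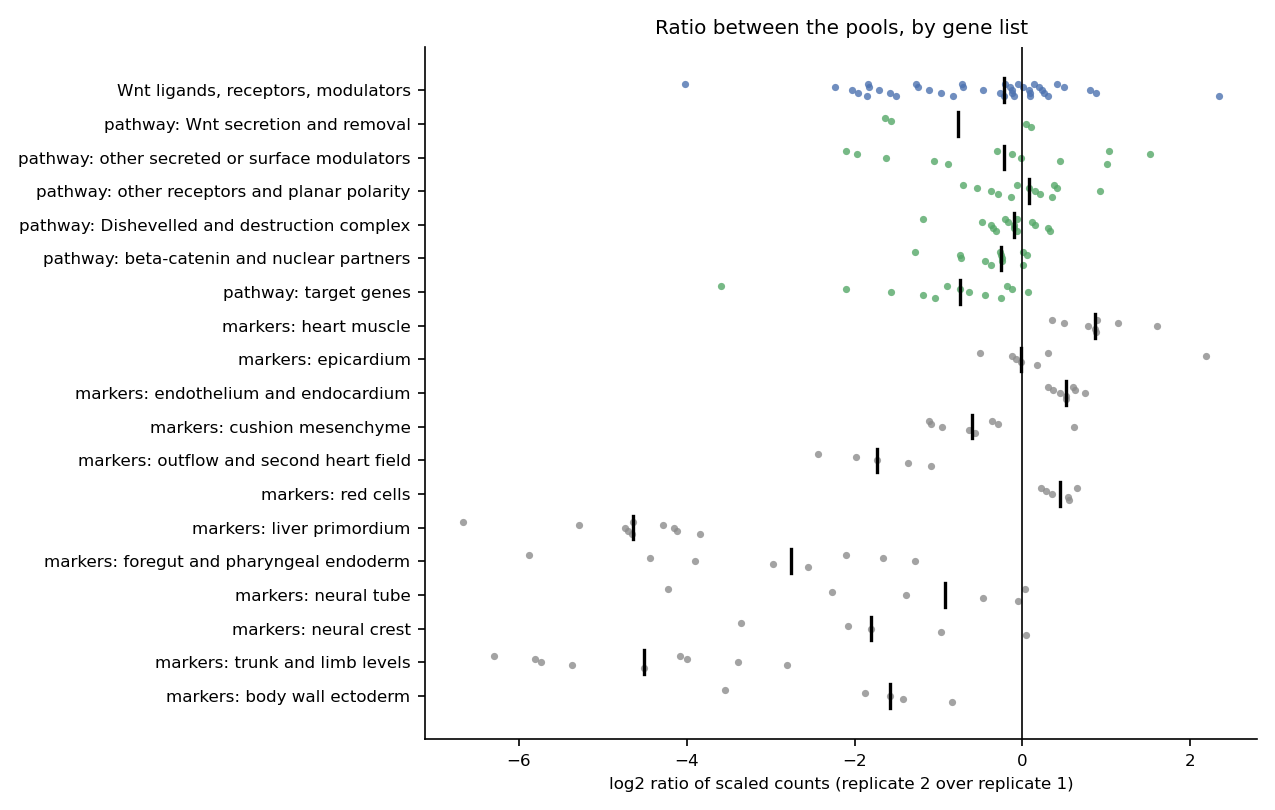
Log2 ratio of scaled counts, replicate 2 over replicate 1, of each gene with a mean of 10 counts or more in the members (top), the pathway lists and the marker lists; black bars are medians. The members and the target genes spread to the left of 0, as do the liver, foregut, trunk and outflow markers, whereas heart muscle markers lie to the right.

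The deposited transcript tables divide each gene's TPM among its listed transcripts, and 9 members at 5 TPM or more in both pools list at least 2. Sfrp2 and Fzd3 were each given to a single transcript. Wnt5a was divided mainly between Wnt5a-202 of 3650 nt (44.6% and 44.97%) and Wnt5a-201 of 7009 nt (38.9% and 37.8%). By counts not divided by length the longer held 61.9% and 61.4%. The short Wnt5a-204 of 337 nt was given 6.07% and 12.15% of the TPM from 0.33% and 0.68% of the counts. For Wnt5a-206 of 361 nt these were 8.88% and 3.47% of the TPM from 0.54% and 0.21% of the counts. Wnt11-205 led Wnt11 with 59.2% and 54.2%, ahead of Wnt11-202 with 30.2% and 29.3%. Wnt2-201 held 57.5% and 65.3% of Wnt2, and an unnamed second transcript the rest. Lrp6-201 held 82.9% and 83.7% of Lrp6 and Rspo1-201 97.0% and 94.9% of Rspo1. By counts, Lrp6-201 held 97.7% and 98.1%. The 722 nt Lrp6-203 was given 13.55% and 14.05% of the TPM from 1.07% and 1.11% of the counts. The 4 transcripts of Wnt5b changed order, Wnt5b-203 leading in replicate 1 (46.6%) and Wnt5b-204 in replicate 2 (35.9%).

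Lgr4 had the widest gap among the main transcripts of these genes. Lgr4-201, with 18 exons, held 74.5% of its TPM in replicate 1 and 52.1% in replicate 2, and Lgr4-202, with 17, held 25.5% and 47.1%. They differ by exon 2 of Lgr4-201, a coding exon of 72 nt (24 codons) at mm10 chromosome 2, 109970692 to 109970763, on the plus strand. It is printed because it is the only sequence that separates the pair:
Lgr4 exon 2: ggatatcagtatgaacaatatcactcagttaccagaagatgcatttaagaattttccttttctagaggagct
The deposited interval of Lgr4-201 was from 5.75 up to 9.502 TPM for replicate 1 and from 2.73 up to 6.66 TPM for replicate 2, and that of Lgr4-202 from 0.841 up to 4.596 and from 1.82 up to 5.75 TPM. The TPM intervals of each transcript overlapped between the pools. No interval was put on the shares, so a change of the exon's use was not tested. Shares of transcripts are estimates, because the transcripts of a gene share most of their sequence.

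Upstream sequence was described for the 29 members that the RefSeq table of GRCm38.p6 (the assembly called mm10) matched by symbol, in 32 windows of 250 bases before a start site. The median member window held 22 CpG pairs, against 6 over all 32851 windows of that table, with members from 4 to 48. Short motifs were searched on both strands, overlaps allowed. They were CTTTGA, the core that TCF/LEF factors bind, then AGATAA, a site of the Gata family of factors, then the box TATAAA, and last CCAAT, a site of the factor NF-Y. Windows with CTTTGA made up 4 of 32 for the members (12.5%), those of Dkk1, Fzd1, Wnt11 and Wnt5b, and 13.8% of all windows. AGATAA was in 9.38% of member windows and 9.99% of all windows. The box TATAAA was in 12.5% of member windows and 12.4% of all. The box CCAAT was in 34.4% of member windows and 33.8% of all. The motifs were thus about as frequent in members as in all windows, while CpG pairs were more frequent. The members are all protein-coding, whereas all windows were taken without that limit, so the sets may differ in gene type. A match is a description of the letters and no evidence of binding.

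Windows are shown for 1 ligand that was even between the pools, Wnt11, and for 3 modulators that were higher in replicate 1, Sfrp2, Dkk2 and Rspo4, whose RefSeq and GENCODE start sites coincide. Capitals mark the motifs above, sequences run 5′ to 3′, and all 4 genes lie on the plus strand. The windows are chr7:98834862-98835111, chr3:83766071-83766320, chr3:132085042-132085291 and chr2:151842677-151842926 in that order.
Wnt11: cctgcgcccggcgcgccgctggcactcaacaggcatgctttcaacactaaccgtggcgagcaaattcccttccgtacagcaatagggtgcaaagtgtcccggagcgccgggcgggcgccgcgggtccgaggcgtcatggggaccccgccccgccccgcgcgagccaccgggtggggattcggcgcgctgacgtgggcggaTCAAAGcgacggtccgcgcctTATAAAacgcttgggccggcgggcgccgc
Sfrp2: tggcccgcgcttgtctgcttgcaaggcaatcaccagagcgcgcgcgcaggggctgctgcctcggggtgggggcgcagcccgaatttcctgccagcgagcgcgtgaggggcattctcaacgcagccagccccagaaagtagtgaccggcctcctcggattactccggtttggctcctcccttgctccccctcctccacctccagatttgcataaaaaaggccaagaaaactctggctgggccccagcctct
Dkk2: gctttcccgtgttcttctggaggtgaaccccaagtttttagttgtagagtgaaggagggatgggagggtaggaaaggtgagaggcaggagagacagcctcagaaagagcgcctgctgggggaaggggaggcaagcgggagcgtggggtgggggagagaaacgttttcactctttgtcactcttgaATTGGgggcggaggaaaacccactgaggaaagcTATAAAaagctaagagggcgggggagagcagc
Rspo4: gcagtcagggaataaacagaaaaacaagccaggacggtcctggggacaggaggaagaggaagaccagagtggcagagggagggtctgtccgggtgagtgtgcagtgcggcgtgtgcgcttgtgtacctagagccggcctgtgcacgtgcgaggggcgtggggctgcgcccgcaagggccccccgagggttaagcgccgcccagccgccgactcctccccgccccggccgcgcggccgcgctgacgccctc
The Wnt11 window shown holds TCAAAG, the reverse complement of CTTTGA, beginning 50 bases before the start and TATAAA 29 bases before it. A second RefSeq start of Wnt11, at 98838845, has a window with none of the motifs and 16 CpG pairs. The Dkk2 window holds ATTGG, the reverse complement of CCAAT, 65 bases and TATAAA 32 bases before the start. Sfrp2 and Rspo4 hold none of these letters. The windows hold 37 CpG pairs for Wnt11, 16 for Sfrp2, 7 for Dkk2 and 24 for Rspo4, so the 3 modulators that were higher in replicate 1 do not share a motif or a CpG content here.

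Exons of 7 members overlap exons of another gene on the opposite strand. With the strand setting of the counting unknown here, reads of such pairs may not be told apart. In the case of Sfrp2 the partner Gm26771 had 46.6 and 38.9 counts against 1310.4 and 307.1, and for Wnt5a the partner Gm2670 had 105.9 and 62.0 against 3884.1 and 4363.0. The partners of Wnt11, Wnt7b, Fzd5 and Fzd6 had 0 to 2 counts, and that of Rspo3 is not listed in the tables.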

How the data were processed

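Total RNA of 2 pools of embryonic hearts was quantified by the authors against mm10 with annotation M4, per the file headers and labels; aligner, quantifying program and strand setting: not given in the sources used here. The deposited tables give expected counts and posterior mean counts (estimated counts, not normalised), TPM and FPKM (scaled by length and library by the authors), the lower and upper bound of an interval around each TPM (taken as a deposited score), and, in the deposited transcript tables, the percent of a gene's TPM held by each transcript.

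Names and positions came from GENCODE M21, which matched 42462 of 43346 genes. Of the expected counts, 43295923 and 39786163 lay on mouse genes, and short features and ERCC spike-ins were left out of scaling. TMM factors were computed from rounded counts of all mouse genes in edgeR 4.0.16 (R 4.3.3, limma 3.58.1). Log2 ratios used the unrounded expected counts, scaled by these factors, with a prior count of 0.5. No test was run, since 1 group of 2 libraries compares no conditions. Intervals of ratios are exact (Clopper-Pearson, 95%). Like the floor of 3 counts, they hold counting error only, because reads lacking molecular identifiers need not be separate molecules. Nothing in the labels says how the pools were dissected.

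The members and lists were chosen with earlier results of these data known. Values are given for members at 1 TPM in both pools or counted as differing, for the 4 most abundant genes of a pathway list and those of it counted as differing, and for the 2 most abundant genes of a marker list. Other values were added after they were seen. The rule also asked for protein sequences, which were not analysed here. Promoter windows are from RefSeq (GRCm38.p6), and the windows shown were chosen after the values were seen. Alternatives covered thresholds, DESeq2 1.42.0 size factors, library totals, spike-in totals, deposited TPM, FPKM, posterior means, prior counts, and 1 library at a time. Where the scaling changed, only the ratio was rescaled and the deposited TPM intervals were kept. The code for ratios and calls was run on simulated counts. These had a smaller spread between libraries than these pools and used counting intervals in place of the deposited ones. That run checks the code and gives no error rate for the calls here. Python 3.11.15, numpy 2.4.6, pandas 2.3.3, scipy 1.17.1 and matplotlib 3.10.9 were used for the rest.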

Additional observations from a re-analysis of the deposited data

How the results depend on the processing

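The count of 28 detected members stayed within 1.5 times under all 7 alternatives, as did the count of 12 members higher in replicate 1 under all 10 (9 with spike-in totals, 15 at 1.5-fold). The count of members higher in replicate 2 rose from 0 to 2 with spike-in totals and to 2 at 1.5-fold, in both cases Dkk3 and Fzd9. With spike-in totals, 3.09% of all genes counted as higher in replicate 1 and 6.1% as higher in replicate 2. At 1.5-fold these shares of all genes were 8.6% and 7.73%. The members' median ratio of -0.22 was -0.34 with total gene counts, where the median of all genes was -0.13, and turned to 0.11 with spike-in totals, which shift every gene alike: the members lay 0.21 below all genes under both scalings. Of the 58 pathway genes, for which other scalings were tried after seeing the data, the 9 higher in replicate 1 became 5 with spike-in totals, and the 2 higher in replicate 2 became 0 with total gene counts and 0 from the deposited TPM. Among members, these last 2 settings added Rspo1 to those higher in replicate 1. The first member of each class was the same in each alternative except that Wnt5a ranked between 1 and 2 with a library left out, as Wnt2 led in replicate 1. By expected counts, which are not divided by length, Wnt5a held 49.1% of the ligands, Lrp6 82.8% of the co-receptors and Sfrp1 82.4% of the Sfrp class, against 32.2%, 74.0% and 67.8% by TPM. No paired analysis was possible because the series has a single group. Members under 10 counts are limited by depth, and with 1 library on each side the spread within a pool is unknown.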
